A study of Drosophila melanogaster with 136 samples.

Results

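The larval carcass is what remains of a feeding Drosophila melanogaster larva, in the third instar, once its organs have been dissected away, so it holds the body wall rather than 1 organ. The labels name 4 arrays of the group Larval Feeding Carcass, out of 136 arrays in 34 groups, and these 4 were set against the mean of the group means of the 7 other tissues dissected from feeding larvae, 28 arrays in all. Those tissues are Mid Gut, Hind Gut, Salivary Gland, Malpighian Tubule, Fatbody, Trachea and the Central Nevous System as the labels spell it, called CNS here, with 4 arrays each. Whole feeding larvae and tissues of wandering larvae stayed out of the comparison. Every group was wild-type Canton-S at the same stage and no allele, agent or dose distinguishes them. Besides the tissue, the labels differ in the number of larvae pooled and in the labelling kit, which both go with the tissue. Each sample pooled several larvae: 30 for carcass, midgut, hindgut and fat body, 50 for tubule, and 100 for salivary gland, CNS and trachea. The labels give 1 round of amplification for 7 of the 8 tissues and a different labelling kit for trachea, whose tissue and kit therefore cannot be told apart.

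The body wall of a fly larva is a single layer of epidermis that secretes a chitin cuticle, rebuilt at each moult under the steroid hormone ecdysone. Segmental muscles attach to that epidermis through tendon cells and are driven by glutamate, oenocytes under the epidermis make the waxy hydrocarbons that keep water in, and blood cells sit in patches beneath it. The hindgut and the trachea are also lined with cuticle, and the gut is wrapped in visceral muscle.

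Values are array signals in intensity units, scaled before deposit so that all arrays share 1 trimmed mean, close to 100.0. A difference is a log2 fold change, carcass minus the mean of the 7 other group means, on log2(signal + 10), which understates changes of dim genes and makes the size of a fold depend on the added constant. A probe set was called where limma gave a Benjamini-Hochberg adjusted p below 0.05 over 15969 probe sets tested and a change of at least 2-fold. Among the genes followed in the text, 147 were called, and the largest adjusted p among them was 0.034. Signals of different probe sets are not comparable as levels, so genes are compared across tissues and not with each other. In RNA from a mixed tissue, fewer cells of a type and less RNA per cell cannot be told apart.

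The 4 carcass arrays correlated with each other at r between 0.974 and 0.986, and their median signals were 10.5 to 11.5. The carcass markers Mlc1, Prm, Tm2, GluRIIA and grh, the 5 of 10 that a probe set of 1 gene measured, were all called higher in carcass and highest there. Summed, they gave 14800, 15000, 11200 and 17300 on the carcass arrays, against means of 9500 in hindgut, 2420 in trachea and 2010 in midgut. Markers of midgut, salivary gland and CNS were low in carcass: midgut markers summed to 36.7 to 103 in carcass and 17900 in midgut, salivary gland markers to 37.3 to 122 and 72400 in their own tissue, and CNS markers to 95.5 to 119 and 4930. The fat body list summed to 1500 to 2970 in carcass, against 34300 in fat body, 9730 in salivary gland and 6140 in hindgut. Tubule markers summed to 2190 to 2380, against 13800 in tubule, 4510 in hindgut and 3760 in midgut. Of the 7 measured, 2 were called higher in carcass than the mean of 7 tissues and 1 was called lower. Best2, of the tubule list, averaged 211 in carcass and 127 in tubule, while the tubule gene salt read 1.32 to 4.00 in carcass. The tracheal list was as high in carcass, 7590 to 10400, as in trachea, 8540, through the cuticle genes Gasp, serp and verm, whereas the tracheal FGF receptor gene btl read 4.09 to 12.1 in carcass, against 223 in trachea. The hindgut list summed to 171 to 221 in carcass and 677 in hindgut, but it was highest in tubule, at 5940, where Alp4 averaged 5505. Its only member highest in hindgut, byn, read 11.3 to 18.8 in carcass, against 351 in hindgut. Among the other tissues, replicate 4 of fat body stood apart: it was the highest array in 373 of the 411 probe sets that spread over 8-fold within that group, and 365 of these were highest in adult testes among the 34 groups. Replicates 3 and 4 of trachea were the highest in 67 and 72 of 148 such probe sets.

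In carcass 1196 probe sets were called higher than the mean of the 7 tissues, 7.49% of those tested, and 865 were called lower, 5.42%. The median log2 fold change over all probe sets tested was -0.08. Leaving out replicate 4 of fat body gave 1193 higher and 874 lower, leaving out replicate 3 of trachea 1199 and 865, and leaving out replicate 4 of trachea 1207 and 851. Against the linear mean of the 7 group means, past 2-fold with no test, the balance turned: 847 probe sets were higher in carcass and 2268 lower. Against single tissues the counts depended on the partner. Hindgut and trachea differed least from carcass, with 946 probe sets called higher in carcass (5.92%) and 1129 lower (7.07%) against hindgut, and 1137 higher (7.12%) and 1073 lower (6.72%) against trachea. The trachea counts were 1129 and 1083 without replicate 3 of trachea and 1170 and 1089 without replicate 4. Against CNS 1766 were higher (11.1%) and 3091 lower (19.4%). Against fat body 2013 were higher (12.6%) and 1378 lower (8.63%), against tubule 2058 (12.9%) and 1384 (8.67%), against midgut 2000 (12.5%) and 1457 (9.12%), and against salivary gland 1758 (11.0%) and 1252 (7.84%). Without replicate 4 of fat body, the counts against fat body were 2015 and 1330. Over all groups of the series, the mean carcass profile correlated best with larval trachea, at r = 0.914, and larval hindgut, at r = 0.903, across probe sets that share arrays and are not independent.

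**Figure D1:**
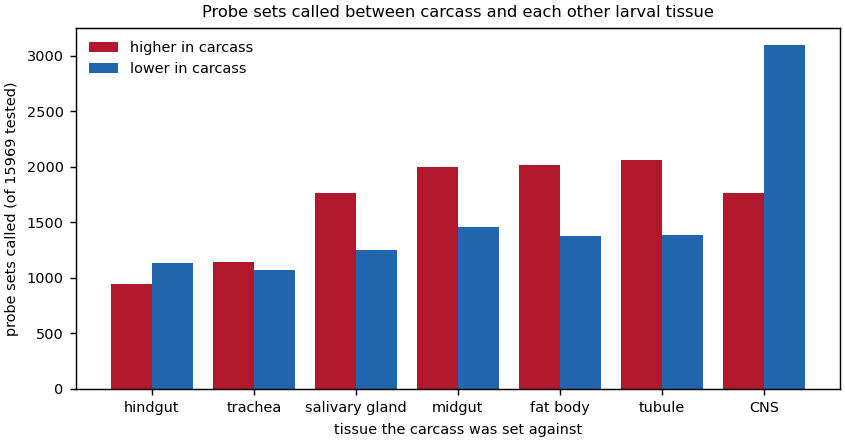
Probe sets called higher (red) or lower (blue) in carcass against each of the 7 other feeding larval tissues, as counts out of 15969 tested. The counts against hindgut (946 and 1129) and trachea (1137 and 1073) are the smallest pairs, and CNS has the most called lower in carcass (3091).

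A stricter set of 346 probe sets (2.17%) was called higher in carcass than in each of the 7 tissues. It was 347 without replicate 4 of fat body, and 345 and 348 without replicate 3 or 4 of trachea. The same count was 1429 for CNS, 516 for fat body, 507 for midgut, 364 for salivary gland, 318 for tubule, 271 for trachea and 149 for hindgut. Only 4 probe sets were called lower in carcass than in each other tissue. On all 4 carcass arrays 502 probe sets (3.14%) read above all 28 others, and 75 (0.47%) read below them all.

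The largest increases among genes with no overlap between carcass and the 28 other arrays included those of cuticle proteins, 2 oenocyte lipid enzymes, the lectin Lectin-galC1 and genes without a given name. Larval cuticle protein gene Lcp9 read 4613, 4679, 3210 and 5494 in carcass, against a lowest, median and highest of 2.76, 9.76 and 91.5 in the other tissues. The log2 fold change was 7.55 ± 0.27 (SE, adjusted p = 7.4e-20 by limma). Non-overlap with the 28 arrays and a large fold were the conditions for naming these genes. Neither they nor the p-values are independent support. Cpr60D, of the chitin-binding Cpr family, read 4512, 4212, 3012 and 4568 in carcass and 0.268, 3.62 and 267 as lowest, median and highest elsewhere (log2 fold change 7.28 ± 0.21). Cpr47Eg (6.92 ± 0.39), Lcp65Ag3 (6.84 ± 0.28) and Cpr49Af (6.61 ± 0.27) behaved alike, with trachea the next highest tissue for each.

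Cyp4g1, the cytochrome P450 that completes hydrocarbon synthesis in oenocytes, read 4142, 3931, 3211 and 4051 in carcass, against 6.08, 17.1 and 417 as lowest, median and highest elsewhere. Its log2 fold change was 6.86 ± 0.39 (adjusted p = 4.1e-15 by limma). FASN3, a fatty acid synthase used in oenocytes, gave 2319, 1928, 2121 and 1971 in carcass, against 1.02, 5.89 and 96.4 elsewhere (6.94 ± 0.26). Lectin-galC1, a galactose-binding lectin, read 1794 to 2114 in carcass and at most 162 elsewhere (7.04 ± 0.34), and in the adult series it was highest in heart.

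Among genes known only by number, CG11349 read 1321, 1055, 1308 and 1325 in carcass, against 0.430, 3.70 and 9.30 as lowest, median and highest elsewhere (6.51 ± 0.12). CG17107 (7.36 ± 0.34), CG17105 (7.04 ± 0.30), CG15282 (6.66 ± 0.17), CG9877 (6.55 ± 0.26) and CG13230 (6.52 ± 0.34) completed the group with Vajk3 (6.60 ± 0.36). For Vajk3 and its relative Vajk2 trachea was close: Vajk3 averaged 4878 ± 830 in carcass and 2407 ± 829 in trachea (SD, n = 4 arrays each), a difference that missed the threshold (adjusted p = 0.070 by limma). Vajk2 averaged 5246 ± 891 in carcass and 2883 ± 873 in trachea.

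**Figure D2:**
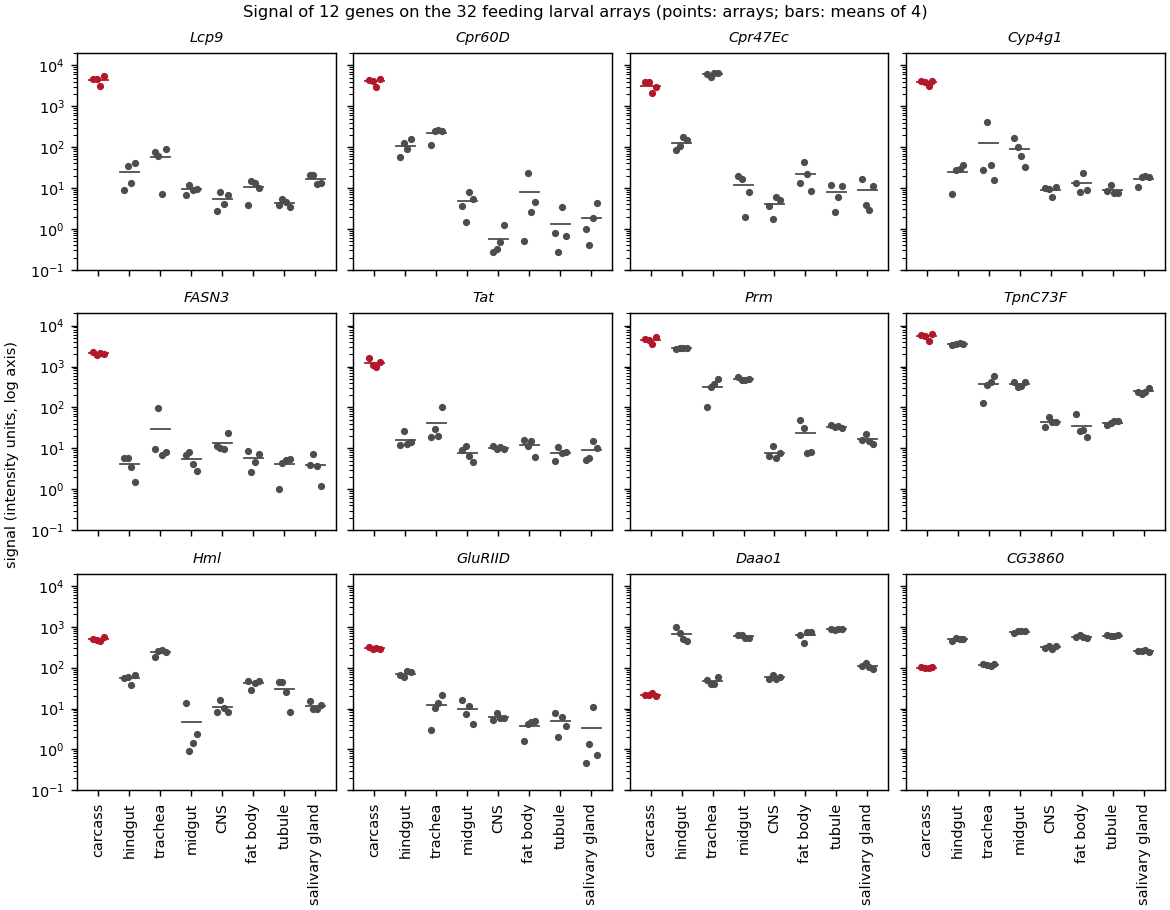
Signal of 12 genes on each of the 32 feeding larval arrays (intensity units, log axis); points are arrays, bars are means of 4, carcass in red at the left of each panel. Lcp9, Cpr60D, Cyp4g1, FASN3 and Tat lie above every other array in carcass, Prm and TpnC73F are followed by hindgut, Cpr47Ec is higher in trachea, and Daao1 and CG3860 are lowest in carcass.

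Cuticle proteins, the longest list, had the largest number of members called higher in carcass. By share, the chitin, thick filament and oenocyte lists had more of their members called higher. Over all probe sets tested 7.49% were called higher and 5.42% lower, and 2.17% were higher than in each tissue. The list counts here and below are to be read beside these shares. Of 101 measured genes of the Cpr, Lcp, Twdl, Ccp84 and Acp65 families, 90 passed the filter on low signal, 38 of these were called higher in carcass than the mean of 7 and none lower, and 23 were higher than in each tissue. The median log2 fold change of the 90 was 0.71, against -0.08 for all probe sets tested. Several of the bright ones were also near trachea or hindgut. Against trachea 29 were called higher and 15 lower, beside 7.12% and 6.72% of all probe sets tested. Against hindgut 37 were higher and 2 lower, beside 5.92% and 7.07%. Cpr78E averaged 4948 ± 959 in carcass and 1321 ± 592 in trachea, and Cpr67B averaged 2954 ± 220 in carcass and 690 ± 35.4 in hindgut (SD, n = 4 each), both called in all 7 comparisons. Lcp65Aa separated the 2 cuticle-lined tissues: it averaged 939 in carcass, 810 in hindgut and 18.3 in trachea, so the carcass call held against trachea (log2 difference 5.04) and not against hindgut (0.16, adjusted p = 0.69 by limma).

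Genes that lie close together on a chromosome arm took opposite sides between carcass and trachea, a pattern chosen after values were seen. In the Cpr49A cluster, Cpr49Af read 2903, 3066, 2246 and 3187 in carcass and averaged 223 ± 147 in trachea, a log2 difference of 3.87 (adjusted p = 2.4e-10 by limma). Cpr49Ag read 146, 118, 112 and 94.6 in carcass and averaged 4182 ± 142 in trachea, a log2 difference of -5.05 (adjusted p = 4.9e-19). Cpr49Ah was also lower in carcass than in trachea, 186 ± 48.8 against 969 ± 251, although it was called higher than the mean of 7 (2.70 ± 0.16). Hindgut carried another pattern, since Cpr49Ae averaged 38.2 in carcass, 1369 in hindgut and 21.9 in trachea. Cpr49Ac was as high in fat body as in carcass, 4033 ± 1055 in carcass and 5999 ± 859 in fat body (log2 difference -0.60, adjusted p = 0.25 by limma).

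The Cpr47E cluster split the same way. Cpr47Eg averaged 4021 ± 1028 in carcass and 243 ± 215 in trachea (log2 difference 4.48), while Cpr47Eb averaged 748 ± 257 in carcass and 4654 ± 637 in trachea (-2.67, adjusted p = 1.8e-13 by limma). Cpr47Ec gave 3965, 3876, 2150 and 2887 in carcass and 6122 ± 664 in trachea, a log2 difference of -0.96 that fell just short of 2-fold. Cpr62Bc (50.0 ± 33.3 in carcass, 4058 ± 689 in trachea) and Twdlbeta (88.3 ± 11.1 in carcass, 2594 ± 453 in trachea) were among the cuticle genes lower in carcass than in trachea, and neither was called against the mean of 7 (0.60 ± 0.17 and 0.74 ± 0.16).

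**Figure D3:**
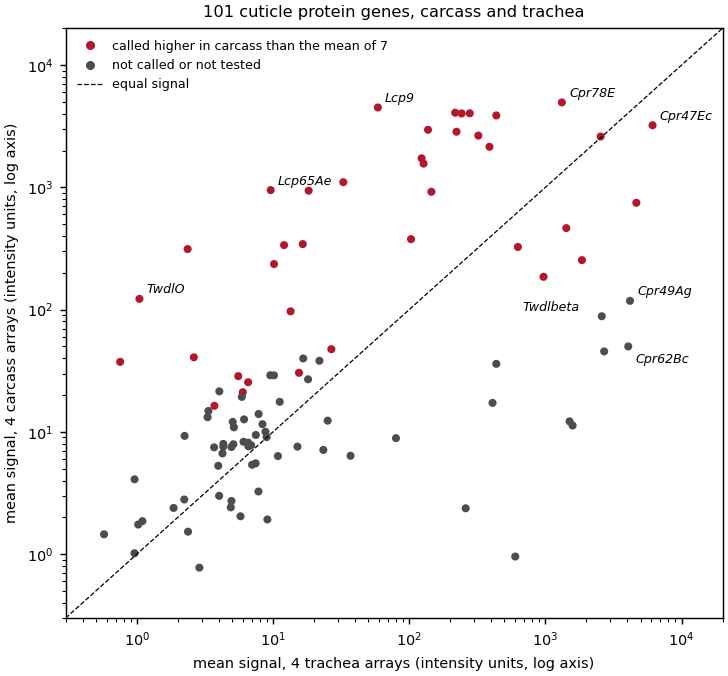
Mean signal of 101 cuticle protein genes on the 4 carcass arrays (vertical, log axis) and the 4 trachea arrays (horizontal, log axis), in intensity units; red points were called higher in carcass than the mean of 7 and the dashed line marks equal signal. Lcp9 and Lcp65Ae lie far above the line, Cpr47Ec lies just under it, and Cpr49Ag, Cpr62Bc and Twdlbeta lie far below it.

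Chitin genes were the one list in which every measured member was higher in carcass: 15 of 15 were called higher than the mean of 7, with a median log2 fold change of 4.40, and 3 were higher than in each tissue. Trachea was near carcass for most of them, with 4 of 15 called higher and none lower in carcass against trachea. Against hindgut 13 were called higher. The shares called higher over all probe sets tested were 7.12% against trachea and 5.92% against hindgut. The chitin synthase gene kkv read 1805, 1640, 1295 and 1804 in carcass, against 1.12, 19.0 and 1456 as lowest, median and highest elsewhere (4.87 ± 0.12). Its highest other arrays were trachea, mean 1283 ± 138, and they overlapped the lowest carcass array. expansion (exp), needed for chitin synthesis, averaged 1081 ± 164 in carcass and 352 ± 39.9 in trachea, without overlap.

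The chitin-binding protein gene obst-E read 3954, 3734, 2085 and 3786 in carcass and at most 782 elsewhere (5.89 ± 0.14, adjusted p = 9.3e-24 by limma), and the chitinase gene Cht7 read 1621 to 2584 in carcass and at most 567 elsewhere (5.13 ± 0.11). Those 2 genes and exp were the members higher than in each tissue. obst-A averaged 3251 ± 538 in carcass and 1973 ± 186 in trachea, and the chitin deacetylase genes serp (3362 ± 612 in carcass, 2870 ± 235 in trachea) and verm (2323 ± 427 in carcass, 1365 ± 217 in trachea) were likewise higher in carcass on average. Cht10 and knk had lower means in carcass than in trachea, 1712 ± 344 against 2599 ± 103 for Cht10 and 347 ± 4.12 against 546 ± 7.89 for knk, and Gasp averaged 3797 ± 338 in carcass and 4079 ± 234 in trachea. The smallest increases were those of mmy (1.36 ± 0.10), which makes the sugar precursor of chitin in many tissues and was highest in tubule, and Cda5 (1.21 ± 0.14), highest in salivary gland.

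Genes of pigmentation and sclerotisation, which darken and cross-link cuticle through dopamine derivatives, were mixed. Here 7 of 13 tested were called higher and 2 lower, beside 7.49% and 5.42% of all probe sets, with a median log2 fold change of 1.05. Ddc, which converts dopa to dopamine, averaged 1875 ± 1017 in carcass and 552 ± 373 in trachea, the next tissue (4.46 ± 0.28). Pu, which makes the cofactor of dopa synthesis, averaged 1450 ± 480 in carcass and 1046 ± 223 in fat body (3.95 ± 0.15). The laccase gene stw read 1211 to 2070 in carcass and at most 1165 elsewhere (4.52 ± 0.11), and yellow-e read 1302 to 1706 in carcass and at most 422 elsewhere (5.51 ± 0.11). ple, the tyrosine hydroxylase gene, was not called and averaged 10.7 ± 10.5 in carcass and 24.6 ± 4.31 in CNS. The genes called lower were t, which averaged 13.5 ± 4.75 in carcass and 1172 ± 204 in tubule (-2.07 ± 0.21), and yellow-f2 (-1.04 ± 0.13), for which the change without carcass replicate 4 was -0.99 and missed 2-fold.

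Several of these genes differed among the carcass arrays themselves. Within carcass 27 probe sets spread over 8-fold, against 1 to 12 in CNS, hindgut, tubule, midgut, salivary gland and whole larva, 148 in trachea and 411 in fat body. Replicate 3 was the highest carcass array in 24 of the 27 and replicate 1 the lowest in 23. ebony (e), which joins beta-alanine to dopamine, read 57.3, 327, 2286 and 164 on carcass replicates 1 to 4, so its log2 fold change of 3.18 ± 0.43 became 3.91 without replicate 1 and 2.22 without replicate 3. The unnamed genes CG7924 (50.8, 647, 2986 and 440) and CG14664 (65.6, 583, 2882 and 1350) and the drosomycin-like gene Drsl5 (52.8, 439, 2566 and 573) had the same order at both ends, and so had Ddc (502, 2253, 2911 and 1833). Without replicate 1 and without replicate 3 the log2 fold change was 5.91 and 4.04 for CG7924, 6.37 and 4.61 for CG14664, and 5.44 and 3.66 for Drsl5. These genes were chosen after their values were seen, and the cause of the spread was not tested.

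Other genes ran the opposite way across the same arrays. Lcp65Ae read 2523, 403, 334 and 538, Lcp65Ac 2204, 373, 529 and 572, and Lcp65Af 819, 145, 103 and 185 on carcass replicates 1 to 4, all highest in replicate 1. Every one of these values was above the highest other array for its gene (23.2 for Lcp65Ae, 322 for Lcp65Ac and 12.2 for Lcp65Af). The log2 fold change of Lcp65Ae was 5.49 ± 0.30 and 4.84 without replicate 1, and that of Lcp65Af 4.21 ± 0.27 and 3.59. TwdlO read 181, 79.8, 15.4 and 213, lowest in replicate 3, with a log2 fold change of 3.12 ± 0.26 and 3.77 without that array.

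Ecdysone-response genes, a list written after values were seen, had 5 of 13 tested members called higher, beside 7.49% of all probe sets, and none lower. Their median log2 fold change was 0.96. ImpE2, an ecdysone-inducible gene of imaginal discs, read 47.1, 155, 416 and 93.9 in carcass and at most 43.9 elsewhere (2.87 ± 0.27). ImpE3 averaged 179 ± 48.9 in carcass and 24.5 ± 4.76 in trachea (2.99 ± 0.18), and ImpL2, which codes for a secreted binding protein of insulin-like peptides, averaged 1868 ± 370 in carcass and 684 ± 131 in hindgut (2.63 ± 0.20). Eip78C, an ecdysone-induced nuclear receptor, read 5.35, 42.7, 105 and 102 in carcass (1.47 ± 0.31, and 2.10 without replicate 1). The ecdysone-response factor br was not called (0.96 ± 0.24) but passed 2-fold without replicate 1 (1.21).

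**Figure D4:**
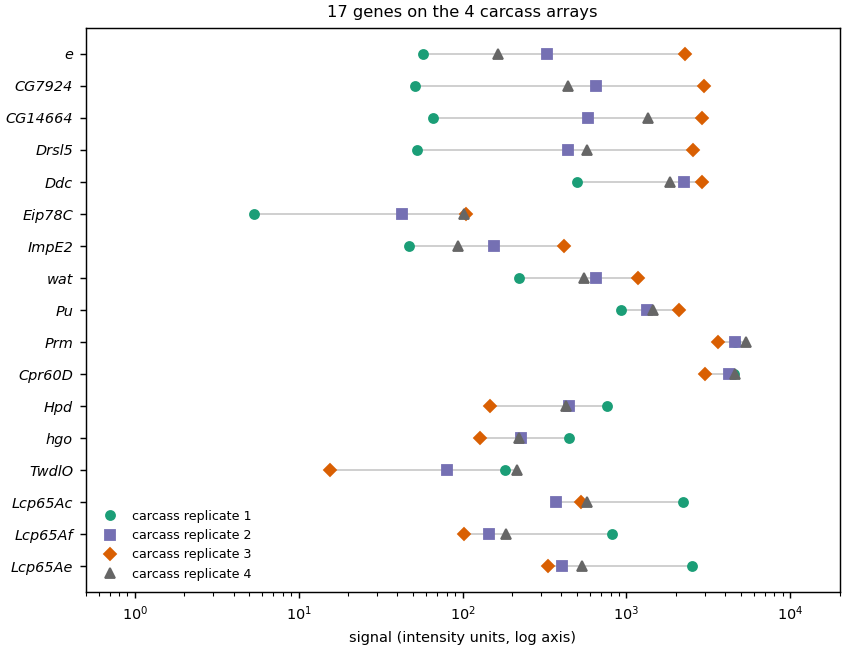
Signals of 17 genes on the 4 carcass arrays (intensity units, log axis), each replicate with its own symbol. The genes e, CG7924, CG14664 and Drsl5 are lowest in replicate 1 and highest in replicate 3, Lcp65Ae, Lcp65Af and Lcp65Ac are highest in replicate 1, and Prm and Cpr60D differ little.

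Muscle structure genes rose in carcass, with hindgut next. Of the thick filament and titin-like list 10 of 11 were called higher, of the thin filament list 6 of 10 and of the Z disc list 6 of 14, with none lower. Their median log2 fold changes were 4.52, 3.23 and 0.93. Over the 22 called genes hindgut was the next highest tissue in 19, with a carcass-to-hindgut ratio of 1.09 to 5.62 and a median of 1.84. Against hindgut alone 5 of 11, 1 of 10 and 3 of 14 members were called higher in carcass. The share over all probe sets tested was 5.92%, and the 1 of 10 is near it. Carcass replicate 3 was the lowest carcass array in 19 of the 22. The marker sum given above was lowest there too, but it includes Mlc1, Prm and Tm2 of these same genes. Mhc, Act57B, Tm1, wupA, TpnC47D and TpnC25D, which code for the main myosin and for isoforms of actin, tropomyosin and troponin, had no probe set for that gene alone and were not analysed here.

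Among thick filament genes, paramyosin (Prm) read 4601, 4571, 3627 and 5377 in carcass, against 5.65, 35.4 and 2913 as lowest, median and highest elsewhere. Carcass did not overlap the other arrays, the log2 fold change was 5.31 ± 0.24 (adjusted p = 2.6e-17 by limma), and hindgut averaged 2822 ± 68.6. The regulatory myosin light chain gene Mlc2 separated more, with 1779 to 2711 in carcass and at most 785 elsewhere (5.53 ± 0.19). The myosin light chain gene Mlc1, in contrast, averaged 4257 ± 859 in carcass and 3352 ± 123 in hindgut and overlapped it (3.97 ± 0.28). The giant elastic proteins followed suit, with projectin (bt) at 4876 ± 734 in carcass and 2230 ± 231 in hindgut, sallimus (sls) at 1370 ± 398 and 769 ± 65.8, and obscurin (Obsc) at 1309 ± 265 and 369 ± 22.5. Myofilin (Mf) and the muscle LIM genes Mlp84B and Mlp60A had log2 fold changes of 4.58 ± 0.26, 5.24 ± 0.22 and 4.31 ± 0.28. Strn-Mlck, which codes for a kinase of the titin family, was brighter in salivary gland, 470 ± 63.7 in carcass and 938 ± 76.8 there (1.53 ± 0.14).

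Among thin filament genes, the troponin C gene TpnC73F read 5760, 5461, 4316 and 6242 in carcass and at most 3687 elsewhere (4.75 ± 0.22). Tropomyosin 2 (Tm2), troponin T (up) and the actin gene Act87E had log2 fold changes of 5.21 ± 0.27, 5.28 ± 0.25 and 4.34 ± 0.29, and for Act87E hindgut was level with carcass, 5969 ± 990 in carcass and 5489 ± 123 in hindgut. The filament-length regulators differed: sals averaged 773 ± 163 in carcass and 138 ± 9.67 in hindgut, and tmod 1494 ± 68.6 in carcass and 787 ± 59.2 in hindgut.

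Genes of adult muscle isoforms were dim in larval carcass. Act88F averaged 14.4 ± 3.80 in larval carcass and 1398 in adult carcass, Act79B 13.7 ± 1.81 and 4319, TpnC41C 6.37 ± 0.77 and 2047, and TpnC4 1.65 ± 1.97 and 1750. Flightin (fln), a flight muscle protein, averaged 7.72 ± 2.91 in larval carcass and 2113 in adult carcass. None of these 5 was called against the mean of 7 larval tissues, and larval and adult arrays were set side by side without a test. In contrast, TpnC73F averaged 5445 in larval carcass and 171 in adult carcass.

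At the Z disc, Zasp66 (4966 ± 821 in carcass, 2924 ± 105 in hindgut), alpha-actinin (Actn; 3247 ± 591 and 1216 ± 127) and the small heat shock gene l(2)efl (4950 ± 863 and 4433 ± 224) were called higher, with log2 fold changes of 4.96 ± 0.27, 3.60 ± 0.14 and 3.57 ± 0.32. Zasp52 (3.58 ± 0.14) was next highest in salivary gland, at 2383 ± 448. The integrin subunit gene if rose by 1.81 ± 0.09 on the log2 scale, whereas talin (rhea), broadly expressed, missed 2-fold (0.71 ± 0.06). Thrombospondin (Tsp), an integrin ligand made by tendon cells, read 259, 249, 321 and 242 in carcass and at most 79.2 elsewhere (3.15 ± 0.19).

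Genes of muscle excitation and calcium handling, a list that also holds potassium channels and arginine kinase, had 6 of 11 called higher and none lower. Their median was 1.63, and 7.49% of all probe sets were called higher. The calcium pump SERCA read 4768, 4541, 3638 and 5060 in carcass and at most 1865 elsewhere (3.11 ± 0.12), and the ryanodine receptor gene RyR, the calcium release channel, read 286 to 510 and at most 93.2 elsewhere (4.00 ± 0.15). Both were higher in carcass than in each tissue. The calcium channel gene Ca-alpha1D averaged 91.1 in both carcass and CNS (2.19 ± 0.18), junctophilin (jp) averaged 70.6 ± 16.1 in carcass and 41.4 ± 11.2 in hindgut, and the potassium channel gene slo was brightest in midgut, 61.6 ± 14.5 in carcass and 190 ± 22.6 there. Arginine kinase (Argk1), which buffers ATP, averaged 4969 ± 841 in carcass and 4477 ± 124 in hindgut (1.80 ± 0.22). Stim, a calcium store sensor, was not called (-0.48 ± 0.08).

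At the neuromuscular junction 5 of 10 tested genes were called higher, beside 7.49% of all probe sets, and none lower. The median was 0.92, and 4 of the 5 are subunits of the muscle glutamate receptor. GluRIID read 325, 294, 302 and 287 in carcass, against 0.460, 6.10 and 84.2 as lowest, median and highest elsewhere (3.94 ± 0.16). GluRIIE (206 ± 23.1), GluRIIA (132 ± 21.3) and GluRIIB (73.4 ± 24.2) had log2 fold changes of 3.15 ± 0.13, 2.70 ± 0.16 and 1.86 ± 0.17. For all 4 the carcass arrays lay above every other array, hindgut was next with means of 25.4 to 73.9, and all 7 tissue comparisons were called. The scaffold gene dlg1 was close to trachea, 247 ± 35.9 in carcass and 225 ± 12.4 there (1.09 ± 0.09). Its change was 0.74, below 2-fold, when its probe sets were averaged. Neto, an accessory protein of these receptors, was dim, 6.18 ± 3.93 in carcass and 6.26 ± 2.09 in tubule, and Nlg2 averaged 9.37 ± 3.91 in carcass and 291 ± 19.6 in CNS.

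Muscle transcription and signalling factors moved less: 4 of 13 tested were called higher, beside 7.49% of all probe sets, and none lower, with a median of 0.49. slou, a muscle identity gene, read 24.4 to 45.8 in carcass, 91.7 ± 6.60 on average in CNS 1.08 in hindgut and 1.10 in trachea, with a log2 fold change of 1.70 ± 0.08. The FGF receptor gene htl (1.38 ± 0.10) and zfh1 (1.47 ± 0.14) also averaged more in CNS. nau, the fly MyoD, averaged 22.6 ± 6.46 in carcass and 20 ± 5.61 in midgut (1.02 ± 0.13), and it missed 2-fold without carcass replicate 1 (0.91) or replicate 2 (0.98). twi was not called (0.91 ± 0.14) and averaged 28.6 ± 1.89 in carcass and 76.1 ± 12.5 in hindgut. In this list 1 gene was called lower when carcass replicate 1 or 2, fat body replicate 4 or trachea replicate 4 was left out.

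Glycolysis and glycogen use had 5 of 12 tested genes called higher and 1 lower, beside 7.49% and 5.42% of all probe sets, with a median of 0.98. Glycogen phosphorylase (Glyp) read 4069, 4052, 3018 and 4791 in carcass and at most 1576 elsewhere (2.41 ± 0.10), and phosphofructokinase (Pfk) read 2719, 1937, 1599 and 2530 and at most 1259 elsewhere (2.64 ± 0.12). Neither gene overlapped another tissue, and CNS was next for both. The increases of Pgm1 (2.35 ± 0.10), Pgi (1.72 ± 0.09) and Pgk (1.18 ± 0.11) were shared with tubule or fat body: Pgm1 averaged 2782 ± 385 in carcass and 2473 ± 69.8 in tubule, and Pgi 3818 ± 770 in carcass and 3491 ± 290 in fat body. Gpdh1, which makes glycerol phosphate, averaged 304 ± 96.5 in carcass and 3465 ± 297 in tubule (-1.01 ± 0.16), was not past 2-fold without carcass replicate 3 (-0.77), and turned to 0.64 when its 4 probe sets were averaged.

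Of the oenocyte genes, 6 of 7 tested were called higher and none lower, with a median log2 fold change of 3.44, and 4 (Cyp4g1, FASN3, FarO and FASN2) were higher than in each tissue. The one not called, the nuclear receptor gene svp, averaged 27.9 ± 5.14 in carcass and 852 ± 156 in fat body (-0.71 ± 0.12, adjusted p = 1.9e-05 by limma, below 2-fold). FarO, a fatty acyl reductase of oenocytes, read 511, 463, 537 and 497 in carcass, against 0.317, 2.10 and 23.5 as lowest, median and highest elsewhere (5.24 ± 0.18). FASN2, a second oenocyte fatty acid synthase, averaged 143 ± 19.0 in carcass and 6.71 ± 5.12 in midgut, the next tissue. waterproof (wat), an acyl reductase needed for gas filling of the airways, was an exception, with 648 ± 396 in carcass and 2392 ± 70.9 in trachea, and KFase, a kynurenine pathway enzyme, averaged 335 ± 94.7 in carcass and 1051 ± 128 in fat body.

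Related lipid enzymes were covered by 2 lists written after values were seen. Of fatty acid elongases 12 of 15 were called higher and none lower (median 2.39), 8 of them higher than in each tissue, and of fatty acyl reductases 9 of 13 (median 1.51), 5 of them higher than in each. CG6660, an elongase, read 726, 645, 894 and 670 in carcass and at most 37.7 elsewhere (5.37 ± 0.19), and Elovl7 averaged 1326 ± 218 in carcass and 271 ± 28.6 in hindgut (4.38 ± 0.13). The reductases CG17562 (634 ± 85.2) and CG4020 (355 ± 57.7) had no other tissue with a mean over 13.3, and their log2 fold changes were 5.31 ± 0.18 and 4.69 ± 0.15. In adults CG17562 averaged 1760 in carcass and CG4020 averaged 1936.

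Tyrosine breakdown, also listed after values were seen, had 5 of 6 tested genes called higher, a median of 3.62 and 4 higher than in each tissue. In pathway order, the aminotransferase Tat read 1662, 1100, 950 and 1285 in carcass and at most 99.8 elsewhere (5.77 ± 0.21). The dioxygenase Hpd read 764, 447, 147 and 426 and at most 19.7 elsewhere (4.74 ± 0.21), and the homogentisate dioxygenase hgo 447, 228, 127 and 220 and at most 13.2 elsewhere (4.17 ± 0.20). These 3 genes were highest in replicate 1 and lowest in replicate 3, and none overlapped another tissue. The isomerase GstZ2 averaged 127 ± 26.0 in carcass and 335 ± 15.2 in CNS (2.28 ± 0.15), and the last enzyme, Faa, averaged 303 ± 141 in carcass and 71.4 ± 22.1 in tubule (3.08 ± 0.18).

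Epidermal genes had 4 of 15 called higher, beside 7.49% of all probe sets, and none lower, with a median of 0.31. The 4 were the cuticle regulator grh, the denticle regulator ovo and the apical matrix genes pio and pot, and trachea was next to or above carcass for each. grh averaged 567 ± 162 in carcass and 470 ± 44.5 in trachea (3.43 ± 0.15), ovo 290 ± 52.9 and 339 ± 20.4 (2.64 ± 0.13), pio 1557 ± 123 and 1313 ± 52.4 (3.69 ± 0.11), and pot 862 ± 66.3 and 1078 ± 64.6 (3.57 ± 0.09). Of tendon cell genes 3 of 9 were called higher, beside the same 7.49%, with a median of 0.79. stripe (sr), the tendon cell factor, read 123, 105, 83.8 and 85.5 in carcass and at most 17.7 elsewhere (2.82 ± 0.10), so with Tsp it was higher than in each tissue. tx averaged 152 ± 13.9 in carcass and 138 ± 8.53 in trachea (2.18 ± 0.11), and the cytoskeletal linker gene shot missed 2-fold (0.90 ± 0.07) and averaged more in trachea, 1313 ± 34.8 in carcass and 2337 ± 112 there.

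Blood cell genes had 13 of 21 called higher and none lower, with a median of 1.28, and 5 were higher than in each tissue. The shares over all probe sets were 7.49% higher and 2.17% higher than in each. Hemolectin (Hml) read 497, 470, 445 and 570 in carcass, against 0.935, 26.5 and 275 as lowest, median and highest elsewhere (3.63 ± 0.19). The plasmatocyte genes Pxn (484 ± 100), NimC1 (213 ± 29.9) and eater (154 ± 26.8) and the crystal cell gene PPO2 (986 ± 334) were separated from trachea by ratios of 2.09, 2.48, 2.63 and 2.32. PPO1 averaged 647 ± 185 in carcass and 321 ± 48.3 in trachea, and He 261 ± 14.6 in carcass and 142 ± 32.3 in trachea. Trachea was the next tissue for all 7 of these genes. atilla, a lamellocyte marker, averaged more in trachea, 1513 ± 281 in carcass and 2237 ± 333 there. SPARC (1.08 ± 0.10) and the GATA factor srp (1.28 ± 0.11) averaged 553 ± 31.1 and 97.9 ± 3.10 in carcass but 5715 ± 463 and 1092 ± 64.1 in fat body. The 8 genes not called had log2 fold changes from -0.19 for crq to 0.73 for Col4a1. crq averaged 205 in carcass and 866 in midgut.

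Heart and nephrocyte genes had 4 of 12 called higher, beside 7.49% of all probe sets, and none lower, with a median of 0.21. Amnionless and Cubn2, uptake receptors of nephrocytes, had log2 fold changes of 2.02 ± 0.31 and 1.74 ± 0.29. Amnionless read 100, 53.1, 81.7 and 48.9 in carcass and up to 92.4 on 1 trachea array, so the groups overlapped, and Cubn2 read 72.8 to 117 in carcass and at most 63.1 elsewhere. Hand (1.40 ± 0.38) and Cubn (1.48 ± 0.23) were next highest in midgut. lectin-33A, highest in adult heart, averaged 1.80 ± 1.04 in larval carcass.

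Lists of other cells that a carcass may hold had medians between -0.16 and 0.19. Over all probe sets tested 7.49% were called higher. The single calls among 15 cell cycle genes and among 17 sensory neuron genes are near that share. Imaginal disc genes had 7 of 27 called higher and none lower (median 0.14), with the patterning genes ara (100.2 ± 29.5 in carcass, 64.0 ± 6.02 in midgut; 2.21 ± 0.17), tsh (190.0 ± 46.3 in carcass, 225 ± 22.1 in CNS; 1.76 ± 0.12) and the growth factor gene dpp (96 ± 5.01 in carcass, 70.5 ± 18.1 in trachea; 1.27 ± 0.15) among them. Of cell cycle genes 1 of 15 was called higher, Klp61F (1.05 ± 0.15), and 2 without carcass replicate 3. Of sensory neuron genes 1 of 17 was called higher, ppk26, a channel subunit of body wall nociceptors, at 22.1 ± 3.37 in carcass and 6.61 ± 2.48 in trachea (1.09 ± 0.13). Without carcass replicate 1 that list had 2 higher and 1 lower, and without replicate 4 it had 1 lower. Its partner subunit ppk read 8.87 to 12.0 in carcass and at most 7.62 elsewhere, without overlap but below 2-fold (0.62 ± 0.09). Gonad genes had 2 of 10 called, bam and ovo, which was also counted among the epidermal genes above. bam averaged 69.3 ± 11.1 in carcass and 22.2 ± 2.06 in hindgut (2.17 ± 0.10), while the germ cell gene vas was not called and averaged 9.52 ± 1.5. None of 9 ring gland genes and none of 4 Hox genes was called, with medians of -0.01 and -0.16.

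**Figure D5:**
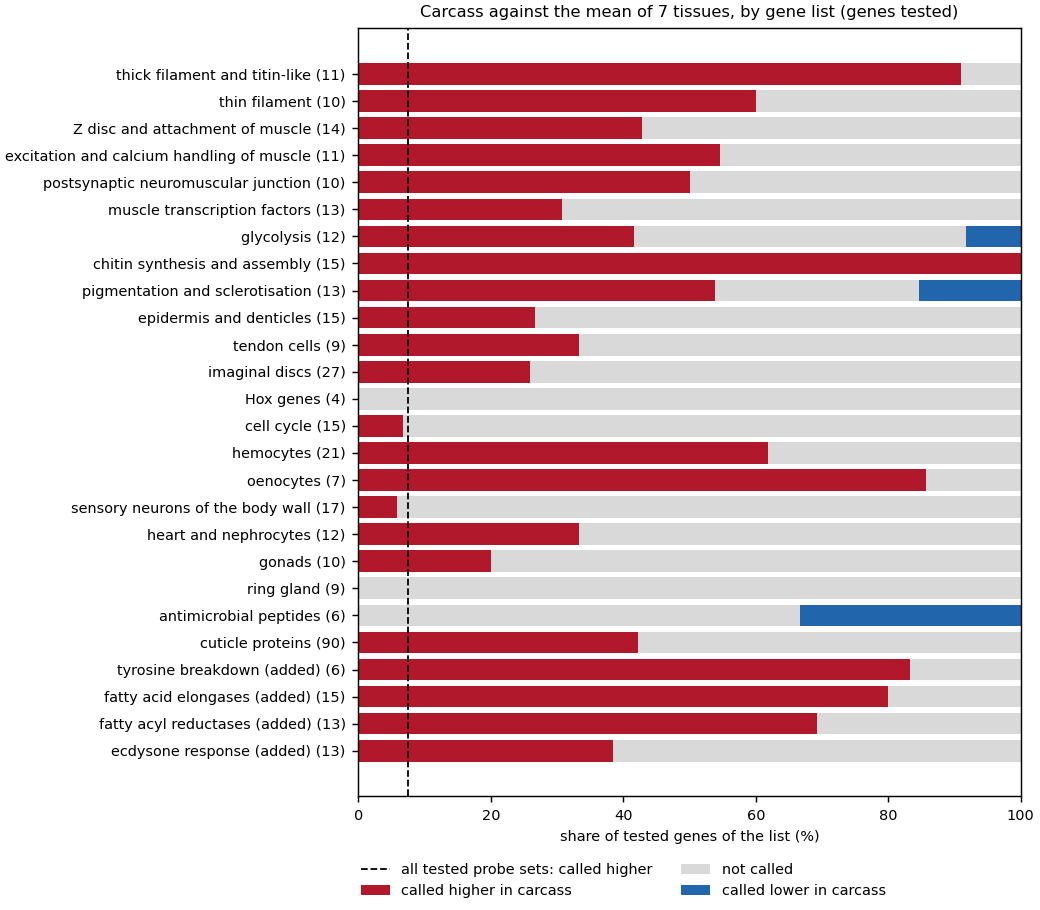
Share of the tested genes of each list called higher (red), not called (grey) or called lower (blue) in carcass against the mean of 7; the number tested follows each name, the dashed line marks the 7.49% of all probe sets called higher, and "(added)" marks lists written after values were seen. The chitin list is red throughout (15 of 15), the thick filament, oenocyte and tyrosine breakdown lists nearly so, and the ring gland and Hox lists hold no call.

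Among the 75 probe sets that read below all 28 other arrays, the largest decrease was that of CG15210, which read 17.3, 9.29, 12.6 and 7.50 in carcass, against 52.0, 162 and 617 as lowest, median and highest elsewhere (-3.15 ± 0.16, adjusted p = 2.1e-16 by limma). D-amino acid oxidase (Daao1) read 21.4, 21.3, 23.8 and 19.8 in carcass, against 39.5, 479 and 972 elsewhere (-3.08 ± 0.13). Reading below every other array was a condition for naming these genes and adds no support. Trachea was the nearest tissue for Daao1, at 46.9, and tubule the brightest, at 871 ± 37.2. The aldehyde oxidase gene AOX1 averaged 52.4 ± 17.5 in carcass and 2038 ± 101 in tubule (-2.46 ± 0.12), and the ethanolamine kinase gene eas 45.9 ± 2.90 and 794 ± 49.4 (-2.10 ± 0.11).

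Lsd-2, a lipid droplet protein, and Dci, an enzyme of fatty acid oxidation, were among the 10 genes of largest decrease. Lsd-2 read 175 to 235 in carcass and at least 242 elsewhere, with fat body at 3199 ± 325 (-1.90 ± 0.10), and Dci read 66.2 to 87.2 in carcass and at least 94.4 elsewhere, with fat body at 3175 ± 331 (-1.86 ± 0.09). CG3860 was the most even of the group, 103, 97.4, 98.4 and 101 in carcass and at least 112 elsewhere (-1.85 ± 0.06), with trachea close at 118. lili (-2.19 ± 0.08) was brightest in salivary gland, CG42394 (-1.98 ± 0.09) in trachea, and Cyp305a1 read 0.473 to 1.39 in carcass and at least 4.37 elsewhere (-1.74 ± 0.16).

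Antimicrobial peptide genes had none of 6 called higher and 2 lower, with a median of -0.90. Of all probe sets tested 7.49% were called higher and 5.42% lower, so none of 6 higher is near that share. AttD averaged 24.3 ± 16.6 in carcass and 937 ± 395 in tubule (-1.50 ± 0.34), and fell short of 2-fold when tubule was left out (-0.95). DptB read 38.5, 13.4, 82.8 and 2.02 in carcass and averaged 3338 ± 2057 in fat body (-1.50 ± 0.58, adjusted p = 0.034 by limma). Its call was lost without carcass replicate 2 (-1.33, adjusted p = 0.12) or replicate 4 (-1.0, adjusted p = 0.23), which left 1 gene called lower. It was also lost without fat body (-0.72, adjusted p = 0.28) and with a pseudocount of 2% of the trimmed mean (adjusted p = 0.059).

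The 346 probe sets higher in carcass than in each tissue were followed through the rest of the series as a description. Hindgut was the next highest larval tissue for 144 and trachea for 121, with 11 to 23 for each of the other five. In whole feeding larvae, which were no part of the comparison, 330 of the 346 read above the mean of the 7 tissues and 325 lay between that mean and carcass, with a median level of 28.6% of carcass. A whole larva includes its carcass and the set was chosen for high carcass signal, so this order is no independent support. The same share over all probe sets was not counted. Across all 34 groups larval carcass was the highest for 171, adult thoracic muscle for 46, adult wings for 29, adult heart for 25 and adult crop for 17. Mlc2, bt, Obsc, sals, RyR, Glyp and Pfk were among those brightest in thoracic muscle, and Tat, Hpd, hgo and yellow-e were among those brightest in wings. Cyp4g1, FASN2 and CG17562 were brightest in adult heart, and FASN3, FarO, CG6660 and CG4020 in adult fat body.

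These 346 probe sets stood for 285 genes. Placed in the gene order of the RefSeq table, 50 of the 281 with a position (17.8%) lay next to another member among tested protein-coding genes, against 4.57% of other tested genes. The longest runs were of 3 genes, both on arm 3R: CG17562, CG17560 and CG14893, which are all fatty acyl reductases, and CG33333, CG42834 and CG14332. Pairs included the receptor subunits GluRIIA with GluRIIB on 2L and GluRIIE with GluRIID on 3R, the cuticle genes Lcp65Af with Lcp65Ae on 3L, CG17105 with CG17107 on 2L, and exp with its relative reb on 2R. Neighbours in such families can share sequence, and how far their probe sets respond to each other was not tested.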

How the data were processed

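Biotin-labelled total RNA of dissected tissues was hybridised to 136 Affymetrix Drosophila Genome 2 arrays. The authors deposited signals as intensity on a linear scale for 18952 probe sets. Software, background correction and summary method are not given in the sources used here. Trimmed means, leaving out 2% of probe sets at each end, ran from 100.002 to 100.006 over the arrays, which points to a common scaling before deposit.

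After 183 control probe sets were left out, 18769 remained, and 15969 with at least 1 of 8 group means at or above the 40th percentile of all signals were tested. Signals were rescaled to a common trimmed mean, 10% of it was added, and log2 values of 32 arrays were fitted with 1 mean per tissue (limma 3.58.1, R 4.3.3, lmFit and eBayes). The contrast was carcass minus the mean of the 7 other means, with 7 pairwise contrasts, each Benjamini-Hochberg adjusted over all probe sets tested. No detection calls were used. The number of arrays limits the precision. A gene is the probe set with 1 symbol that is brightest over the 32 arrays, and 13647 probe sets had 1 symbol, 402 several and 4720 none in the platform annotation. Symbols were updated by gene ID for 13544. The fit was also run on simulated data in which all tissues were alike except for probe sets changed in carcass. Real tissues differ in many more probe sets, so that run does not vouch for the counts here.

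Lists hold named genes of a tissue or pathway, and cuticle genes were taken by symbol. The members and lists were chosen with earlier results of these data known. Named genes were up to 15 and 10 of largest change without overlap, up to 4 highest, 2 lowest and 2 uncalled per list, and tissue markers; 63 of 168 genes followed were chosen after their values were seen. Nothing says which larvae gave which sample, and titles call only some replicates biological, so the spread behind every p-value is that between samples and may be technical. No 2 arrays held identical values. Between carcass and same-numbered arrays of the other tissues residual r ran from -0.16 to 0.22. It was largest with fat body, at 0.22, 0.098 and 0.11 for replicates 2, 3 and 4, and -0.042 for replicate 1. No sequences, promoters or coordinates were used. Alternatives changed the scaling, pseudocount, filter, variance model, array weights, replicate block, carcass arrays, tissues and probe set choice, with arrays standing apart left out as choices made after seeing the data.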

Additional observations from a re-analysis of the deposited data

Results flagged for a closer look

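In a group of 4 arrays, a signal stands apart where its gap to the nearest other array takes up more than 0.83 of the group's range. This held for 20 of the 168 genes followed here on the carcass arrays, where chance flags about 1 in 20 groups. As 63 of the 168 genes were chosen after their values were seen, some of them for 1 array standing out, the count cannot be read against that rate. Replicate 1 was the high one for 9 genes: Lcp65Ae (2523, the others at 334 to 538), Lcp65Ac (2204), Lcp65Af (819), Cpr49Ae (55.6), GluRIIA (164), GstZ2 (166), pot (961), Cubn2 (117) and Cubn (190); yellow-f2 was also highest there, at a dim 5.50. Replicate 3 was the high one for e (2286, the others at 57.3 to 327) and the low one for obst-E (2085), serp (2445), Zasp52 (2869) and TpnC41C (5.22). Replicate 2 was low for CG11349 (1055) and high for lectin-33A (3.35), and replicate 4 was high for eater (194), He (283) and vas (11.7). When each carcass array was left out in turn, the call of 1 of these 20 genes changed, that of yellow-f2 without replicate 4 (-0.99).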

How the results depend on the processing

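The counts of probe sets called higher (1196), lower (865) and higher than in each tissue (346) stayed within 1.5 times under every alternative run, except the lower count, which was 484 with a pseudocount of 40% of the trimmed mean and 2268, beside 847 higher, when the linear mean of the 7 group means was used past 2-fold with no test. The pseudocount of 2% gave 1623 higher and 1273 lower, and that of 40% gave 858 higher, all of them among the 1196. Leaving out 1 carcass array gave 1179 to 1234 higher, 817 to 898 lower and 340 to 347 higher than in each; leaving out a tissue gave up to 487 higher than in each (without trachea). With the replicate block the counts were 1196, 865 and 347, and the block changed no call of a named gene. Of named genes, 4 changed sign: Cpr49Ag (-0.016) and Cpr62Bc (-0.032) with the pseudocount of 40%, Act79B (-0.041) with quantile normalization, none of them called, and Gpdh1 (0.64) with its probe sets averaged. Under the pseudocount of 40%, 17 further named genes lost their call, among them the dim slou, htl, zfh1, nau, ppk26 and Cyp305a1. The size of a fold moved by over 1.5 times in 102 of 168 named genes with the pseudocount of 40%, in 70 with that of 2%, in 23 without trachea, in 19 without hindgut and in 9 without fat body. Leaving out 1 tissue ended the call of 10 named genes. DptB was lost without fat body (-0.72, adjusted p = 0.28 by limma) and AttD without tubule (-0.95). Gpdh1 was lost without fat body, tubule, midgut or salivary gland (-0.99 to -0.59), and yellow-f2 without fat body (-0.57) or hindgut (-0.79). srp was lost without CNS (0.97), nau without CNS, fat body or salivary gland (0.94 to 0.99) and Cda5 without tubule or midgut (0.98). dlg1 was lost without fat body, tubule or midgut (0.88 to 1.00), SPARC without tubule, midgut or salivary gland (0.69 to 0.92) and Klp61F without those or fat body (0.78 to 0.98). Calls were gained by Cpr49Ag, Twdlbeta, Cpr62Bc and shot without trachea, by Cpr49Ae, Cpr49Ag, br, twi and shot without hindgut, by br without CNS and by svp without midgut (-1.12). The causes were not tested. By construction, the pseudocount compresses the folds of dim genes most.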
